A study of Mus musculus with 6 samples.

Results

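The mesenchymal and neural classical cadherins examined here were 10 genes, chosen by symbol from a list: Cdh2 and Cdh4 of type I, Cdh6, Cdh8, Cdh10, Cdh11, Cdh12, Cdh18 and Cdh20 of type II, and Cdh13, which is set apart by its lipid anchor. All 10 matched an identifier, out of 56691 identifiers in the count tables. The study dissected palatal shelves from mouse embryos of strain C57BL/6J at E14.0 and sequenced RNA in bulk from the anterior end (3 libraries) and the posterior end (3 libraries). No mutation or treatment was present in either group, and both shared strain and stage. The study calls the 6 samples biologically independent, the sources used here do not say whether a library came from 1 embryo or from several, and p-values measure the spread between libraries only. The members were chosen with their difference between the ends already known, so every value of that difference below is a description without a test.

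Classical cadherins are calcium-dependent adhesion molecules that bind the same or a related cadherin on the neighbouring cell, and their cytoplasmic tails are tied to actin through the catenins. Type I cadherins such as N-cadherin and R-cadherin swap a single tryptophan between partners at the tip of the molecule, whereas type II cadherins swap a pair of tryptophans and tend to sort cells into finer groups, as they do among motor neurons and in limb and facial mesenchyme. T-cadherin, the product of Cdh13, has no cytoplasmic tail, is held by a glycosylphosphatidylinositol (GPI) anchor and does not use the tryptophan swap. In the developing palate, the shelves are made mostly of neural crest-derived mesenchyme under an epithelium, and the posterior end, the future soft palate, also holds the precursors of its muscles.

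The stretch that separates these classes is the adhesion arm, the start of the mature protein after the prodomain is cut off. The first 12 codons after the first furin-type cleavage motif were read from GENCODE M21 coding sequences on GRCm38, and are shown for 6 members: the 4 that separated the ends, Cdh11 as the member with the highest level, and Cdh13 as the one outside both types. Capitals mark tryptophan codons.
Cdh4: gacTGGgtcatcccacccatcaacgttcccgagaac
Cdh6: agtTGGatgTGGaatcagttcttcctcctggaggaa
Cdh11: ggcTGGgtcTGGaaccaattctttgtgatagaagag
Cdh18: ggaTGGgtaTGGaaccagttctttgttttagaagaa
Cdh20: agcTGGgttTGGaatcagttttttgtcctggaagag
Cdh13: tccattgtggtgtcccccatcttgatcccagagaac
The Cdh4 arm lies at chr2:179797560-179797595 on the plus strand and carries 1 tryptophan codon, at codon 2. The arms of Cdh6 (chr15:13091683-13091718, minus strand), Cdh11 (chr8:102679645-102679680, minus strand), Cdh18 (chr15:23173861-23173896, plus strand) and Cdh20 (chr1:104934274-104934309, plus strand) carry 2, at codons 2 and 4. The Cdh13 arm (chr8:118757416-118757451, plus strand) carries none. Among the members not printed, Cdh8, Cdh10 and Cdh12 have tryptophan codons at the same 2 places as the other type II genes, and Cdh2 has 1 at the same place as Cdh4.

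For each library the authors deposited whole-number read counts per gene, and the counts of the reverse strand were used, which added up to between 11378736 and 15172733 per library. Levels are given as normalised read counts (CPM, counts scaled to a common library size), computed with edgeR's TMM factors. Posterior replicates 2 and 3 stood apart from the other libraries: 6.12% and 5.94% of their reads mapped to several places, against 8.45% to 8.77% in the other 4. The libraries that stood apart are both posterior, so the group and the region cannot be told apart within them, and the difference of each member below is also given from a fit with a term for these 2 groups of libraries, which rests on posterior replicate 1 and the anterior libraries. Over all genes, 1169 of the 15673 tested passed an adjusted p of 0.05 in edgeR's quasi-likelihood test, or 7.46%, and 28.0% had libraries that did not overlap between the ends. Of the palatal mesenchyme markers, checked against the tissue label, 8 of 8 were tested and none was at 0 counts in an end, with Col1a1 (a collagen) the highest per length. They did not move as 1 group: edgeR called 4, 3 higher posterior and 1 higher anterior (7 at an unadjusted p below 0.05, 7 called by DESeq2), the last being the mesenchymal transcription factor Prrx1 (1055 CPM at the anterior and 416 CPM at the posterior end). Their summed level ranged from 11856 to 13061 CPM at the anterior and from 15537 to 25607 CPM at the posterior end, most of it from the 3 collagen genes.

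The 10 cadherins fell into 2 sets by their levels. Cdh4, Cdh6, Cdh18 and Cdh20 were higher in each posterior library than in any anterior library, by 3.56 to 60.4 times on the ratio of mean CPM. Over all genes tested, 14.7% did not overlap and were higher posterior. The other 6 members overlapped between the ends. Of the 10 members, all of which passed the filter on low counts, 4 were called at an adjusted p below 0.05 with 7.46% of all genes called, all 4 of them higher posterior with 4.87% of all genes called that way. None was called higher anterior, where 2.59% of all genes were. Because the members were picked on this contrast, nothing is read from those counts. The median log2 fold change (posterior over anterior) over the 10 members was 1.102, beside 0.00 over all genes tested. It lies between the values of Cdh10 (0.68) and Cdh12 (1.52), neither of them called. With the library-group term the 6 overlapping members ran from -1.03 to 0.01, and the 4 others from 1.80 to 5.55. Cdh18 and Cdh20 passed the filter on low counts only through the posterior libraries. The median thus follows in part from the filter and the choice of members, and nothing is read from it. In bulk RNA, fewer cells of a type and less RNA per cell cannot be told apart.

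**Figure D1:**
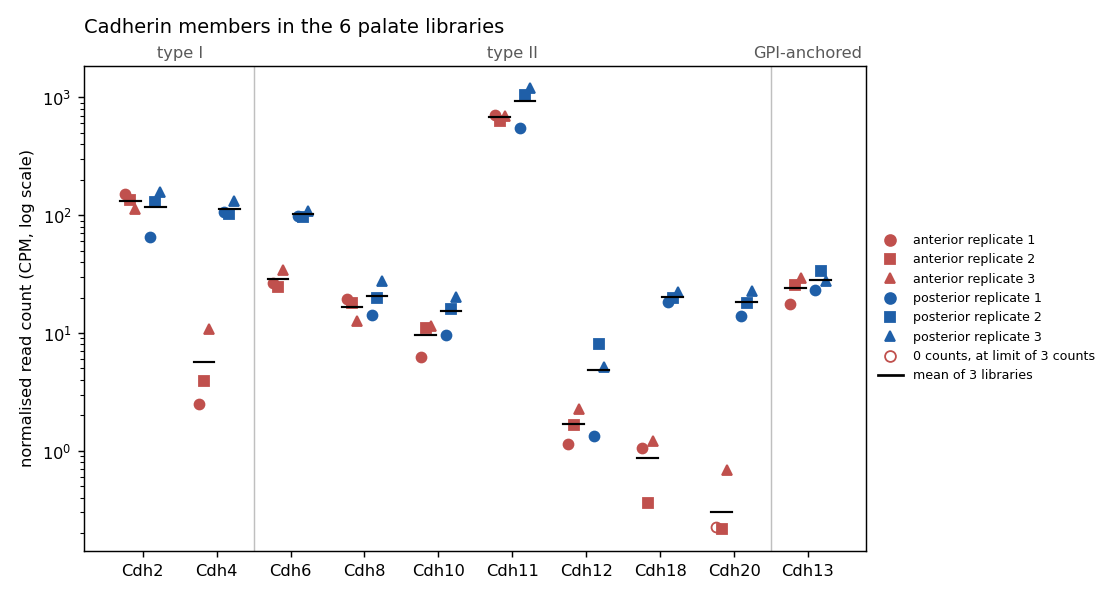
Normalised read counts (CPM, log scale) of the 10 cadherins in each of the 6 palate libraries, with marker shapes for replicates, black lines for the mean of 3 libraries and an open circle for a library with 0 counts, drawn at the limit of 3 counts. Cdh4, Cdh6, Cdh18 and Cdh20 have all posterior points above all anterior points, while the points of the other 6 members overlap.

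The type I pair differed in kind between the ends. Cdh4 (R-cadherin, chr2:179442431-179899373, plus strand) is best known from retina and brain. Its level was 2.50, 3.92 and 10.7 CPM in anterior replicates 1, 2 and 3, and 105, 103 and 132 CPM in posterior replicates 1, 2 and 3. The anterior libraries were all low but uneven, with replicate 3 the highest, while the posterior libraries lay close together. The mean was 5.71 ± 4.39 CPM at the anterior and 113 ± 16.0 CPM at the posterior end (SD, n = 3 each), a log2 fold change of 4.33 (standard error 0.46). Without anterior replicate 1 it was 3.97, without anterior replicate 3 it was 5.13, and with the library-group term 4.25.

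Cdh2 (N-cadherin, chr18:16588877-16809246, minus strand) is the classical cadherin of mesenchyme, muscle precursors and neural tissue. Its level was 151, 135 and 113 CPM in anterior replicates 1, 2 and 3, against 65.1, 129 and 158 CPM in posterior replicates 1, 2 and 3. Posterior replicate 1 lay below every anterior library, posterior replicate 2 within them and posterior replicate 3 above them. The log2 fold change was -0.18 (standard error 0.29), the most negative of the members. Its direction depended on posterior replicate 1: it was 0.12 without that library and -1.03 with the library-group term. With that term 5 members were called, where 7.61% of all genes were, the fifth being Cdh2. Posterior replicate 1 alone against the anterior libraries, a comparison added after seeing the data, called 4 members (Cdh2, Cdh4, Cdh6 and Cdh18), where 7.50% of all genes were called.

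Within type II, Cdh11 (OB-cadherin, chr8:102632095-102785642, minus strand), a mesenchymal cadherin named for its place in osteoblasts, had the highest level of all members. It stood at 704, 633 and 698 CPM in anterior replicates 1, 2 and 3. The posterior libraries gave 545, 1039 and 1206 CPM, so that replicate 1 was below and replicates 2 and 3 were above all anterior libraries. The log2 fold change of 0.46 (standard error 0.27) thus averaged values on both sides of the anterior range. It was -0.32 with the library-group term and 0.73 without posterior replicate 1.

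Cdh6 (K-cadherin, chr15:13028701-13173675, minus strand) is known from kidney tubules and from neural crest cells. Its level was 26.7, 24.5 and 34.2 CPM in anterior replicates 1, 2 and 3, and 98.8, 96.4 and 109 CPM in posterior replicates 1, 2 and 3. All posterior libraries lay above all anterior ones and close to each other, including the pair that stands apart. The mean was 28.5 ± 5.07 CPM at the anterior and 102 ± 6.86 CPM at the posterior end (SD, n = 3 each). Its log2 fold change of 1.84 had a standard error of 0.14, the smallest among the members, and was 1.80 with the library-group term and between 1.73 and 1.98 when each library was left out in turn.

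Cdh18 (chr15:22549022-23474418, plus strand), a type II cadherin first described in brain, was named by the study among markers of posterior mesenchymal cells in its single-cell data. In bulk RNA it had 14, 5 and 14 counts in anterior replicates 1, 2 and 3, or 1.06, 0.363 and 1.21 CPM. The posterior libraries held 246, 275 and 323 counts, or 18.4, 19.8 and 22.1 CPM. The anterior levels were near the limit of detection and the posterior ones even, with 20.1 ± 1.88 CPM (SD, n = 3), 22.9 times the anterior mean. The log2 fold change was 4.53 (standard error 0.32), and 4.403 with the library-group term. Leaving out each library in turn gave 4.14 to 4.81.

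Cdh20 (chr1:104768529-104995481, plus strand), another neural type II cadherin, is a close relative of Cdh7. It had 0, 3 and 8 counts in anterior replicates 1, 2 and 3, and 186, 251 and 335 counts in posterior replicates 1, 2 and 3. The posterior levels of 13.9, 18.1 and 22.9 CPM were all above the highest anterior level of 0.691 CPM. The log2 fold change was 5.95 (standard error 0.57), 5.55 with the library-group term, and depended on single anterior libraries: it was 5.35 without anterior replicate 1, 5.77 without anterior replicate 2 and 7.25 without anterior replicate 3. The remaining anterior libraries in the last case hold 0 and 3 counts, so that 7.25 is a fitted value and no bound. Cdh20 and Cdh18 passed the filter on low counts only through the posterior libraries, where they are high.

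The other 3 type II members are mainly known from the nervous system, and each had its lowest posterior level in replicate 1. Cdh8 (chr8:99024471-99416471, minus strand) had 19.4, 17.99 and 12.5 CPM in anterior replicates 1, 2 and 3, and 14.3, 19.7 and 27.4 CPM in posterior replicates 1, 2 and 3. The ends overlapped, and the log2 fold change of 0.30 (standard error 0.26) was -0.23 with the library-group term. Cdh10 (chr15:18818947-19014236, plus strand) had 6.21, 11.03 and 11.5 CPM in anterior and 9.64, 16.1 and 20.2 CPM in posterior replicates 1, 2 and 3. Its posterior replicate 1 lay among the anterior libraries, so that the log2 fold change of 0.68 (standard error 0.32) was 0.01 with the library-group term.

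Cdh12 (chr15:20449265-21589533, plus strand) was the lowest of the members by mean TPM (level per length) over all 6 libraries, though not at the anterior end alone. It had 15, 23 and 26 counts in anterior replicates 1, 2 and 3, and 18, 111 and 75 counts in posterior replicates 1, 2 and 3. Only posterior replicates 2 and 3, at 7.997 and 5.13 CPM, exceeded the anterior range of 1.14 to 2.25 CPM, and posterior replicate 1 stood at 1.34 CPM. The log2 fold change was 1.52 (standard error 0.60), 1.97 without posterior replicate 1, 0.96 without posterior replicate 2 and -0.31 with the library-group term. Without posterior replicate 1, 6 of 9 members tested were called, Cdh10, Cdh11 and Cdh12 among them, where 46.4% of all genes were called. An annotated gene on the same strand, Gm49685, overlaps an exon of Cdh12, so part of its reads may have been left uncounted. Neuronal markers were also highest in posterior replicate 2: their summed level was 119 to 131 CPM at the anterior end and 184, 482 and 121 CPM in posterior replicates 1, 2 and 3. Of these 10 markers 9 were tested and had positive log2 fold changes (median 1.47), and none was at 0 in an end. edgeR called 2, both higher posterior, where 4.87% of all genes were, with 6 at an unadjusted p below 0.05 and 4 called by DESeq2. Their part in the Cdh12 values was not tested.

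Cdh13 (T-cadherin, chr8:118283733-119324921, plus strand), which is known from vessels, heart and axons, differed least from the all-gene median after Cdh2. Its level was 17.6, 25.6 and 29.3 CPM in anterior replicates 1, 2 and 3, and 23.0, 33.3 and 27.4 CPM in posterior replicates 1, 2 and 3. The 2 ranges overlapped over most of their length. The log2 fold change of 0.21 (standard error 0.21) was -0.07 with the library-group term and -0.06 with a correction for transcript length. Endothelial markers, summed, ranged from 411 to 432 CPM at the anterior and from 392 to 551 CPM at the posterior end, with none at 0. edgeR called 0 of 10, beside 7.46% of all genes (2 at an unadjusted p below 0.05, 1 by DESeq2).

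**Figure D2:**
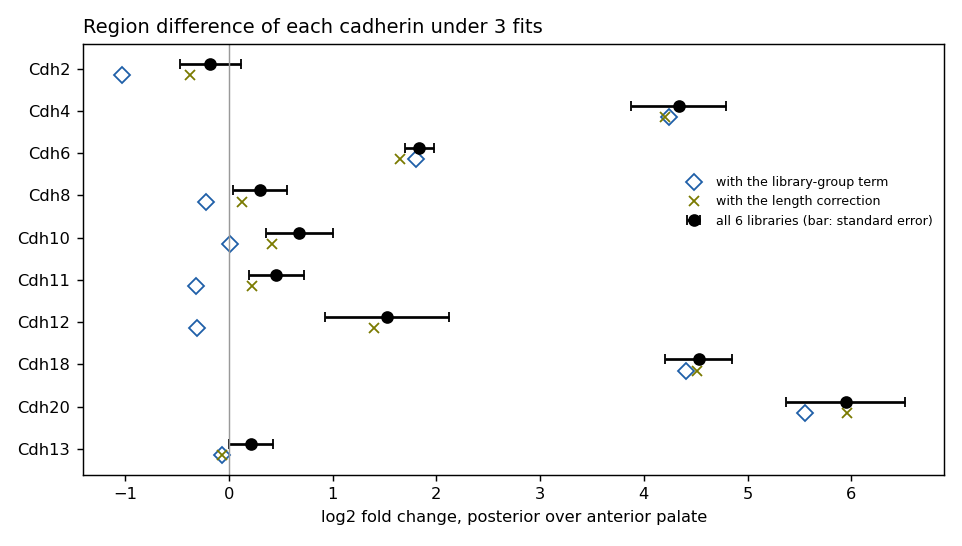
Log2 fold change (posterior over anterior palate) of each cadherin from all 6 libraries, with bars for the standard error (black circles), with the library-group term (open diamonds) and with the transcript length correction (crosses). Cdh4, Cdh6, Cdh18 and Cdh20 stay far to the right of 0 in all 3 fits, while Cdh8, Cdh11, Cdh12 and Cdh13 change side with the library-group term.

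The 3 classes were then compared by level per length, in TPM (transcript shares on a common scale), computed from the counts and the merged exons of each gene. Cdh11 alone made up 74.4 ± 1.19% of the summed TPM of the 10 members at the anterior end and 63.3 ± 5.46% at the posterior end (SD, n = 3 each). Type II genes together held 81.0 ± 1.43% and 79.5 ± 2.14%, type I genes 16.9 ± 1.74% and 18.9 ± 1.94%, and Cdh13 2.11 ± 0.559% and 1.60 ± 0.369%. The Cdh13 share depended on the length used and was 3.87% and 3.11% with the longest coding transcript. The class shares thus moved by about their spread, whereas the genes within a class did not keep their shares. Cdh4 made up 4.83 ± 4.15% of type I at the anterior end and 53.1 ± 9.65% at the posterior end. Type II without Cdh11 summed to 22.9 ± 1.81 TPM at the anterior end and 91.6 ± 19.7 TPM at the posterior end. The 4 genes that did not overlap, a set defined by their values, held 4.11 ± 1.21% of the summed TPM at the anterior end and 23.3 ± 6.42% at the posterior end.

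At the anterior end the order by mean TPM was Cdh11 (257 ± 18.5), Cdh2 (55.6 ± 8.15), Cdh6 (10.7 ± 2.01), Cdh13 (7.26 ± 1.80), Cdh8 (7.25 ± 1.56), Cdh10 (3.21 ± 0.970), Cdh4 (2.66 ± 2.07), Cdh12 (0.902 ± 0.301), Cdh18 (0.654 ± 0.342) and Cdh20 (0.256 ± 0.301). Each of the first 3 lay above the next without overlap, as Cdh8 did above Cdh10, while Cdh13 overlapped Cdh8 and neighbours from Cdh10 down overlapped each other. At the posterior end it was Cdh11 (385 ± 163), Cdh4 (56.7 ± 10.5), Cdh2 (53.8 ± 24.5), Cdh6 (40.7 ± 4.83), Cdh20 (16.7 ± 5.09), Cdh18 (16.0 ± 2.57), Cdh8 (9.69 ± 3.63), Cdh13 (9.07 ± 2.33), Cdh10 (5.60 ± 2.25) and Cdh12 (2.87 ± 2.09). There Cdh11 lay above Cdh4 and Cdh6 above Cdh20 without overlap, and all other neighbours overlapped. The order among the lower genes depended on the length used: over all 6 libraries, Cdh13 and Cdh10 moved up with the length of the longest coding transcript.

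By genome position, Cdh6, Cdh10, Cdh12 and Cdh18 lie on chromosome 15 within 10.4 Mb (chr15:13028701-23474418), a stretch in which M21 annotates 6 protein-coding genes, of which 5 are cadherins. The fifth cadherin there, Cdh9, a neural type II gene that is not a member, had a mean of 0.294 CPM at the anterior and 1.16 CPM at the posterior end and did not reach the count filter. The log2 fold changes along the chromosome, from Cdh6 through Cdh10 and Cdh12 to Cdh18, were 1.84, 0.68, 1.52 and 4.53. The members at the 2 outer places were thus those that did not overlap between the ends, with the overlapping members between them. Cdh9, which lies between Cdh6 and Cdh10, did not overlap either, at low counts. It had 0, 5 and 6 counts in anterior and 9, 20 and 20 counts in posterior replicates 1, 2 and 3. Cdh8, Cdh11 and Cdh13 lie on chromosome 8, and none of those 3 separated the ends.

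Coding sequences of the members were aligned base by base, and identity is the share of aligned bases that match. The 21 type II pairs ran from 62.6% to 71.85% with a median of 64.4%, and the type I pair had 68.8%. Type I against type II gave 58.4% to 61.1% over 14 pairs, and Cdh13 gave 58.5% to 63.3% with type II genes and 60.5% to 61.6% with type I genes. The closest pair, Cdh6 and Cdh10, joined a gene higher in every posterior library to one that overlapped between the ends. The next type II pair, Cdh8 and Cdh11 at 68.85%, joined genes that both overlapped and both had their lowest posterior level in replicate 1. Cdh18 and Cdh20 had 64.7%. The Cdh13 coding sequence was also the shortest, at 2142 bases against 2364 to 2739 in the others.

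**Figure D3:**
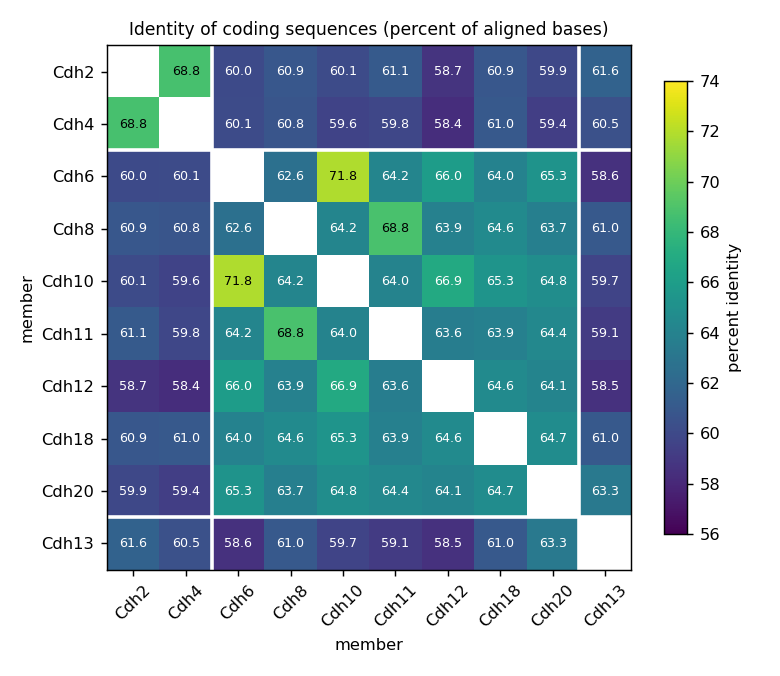
Identity between the coding sequences of the 10 cadherins as a percent of aligned bases, ordered by class with white lines between type I (first 2), type II and Cdh13 (last). Cdh6 with Cdh10, Cdh8 with Cdh11 and Cdh2 with Cdh4 are the brightest cells.

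Profiles most like that of Cdh18 were sought among 15672 other tested genes by the Euclidean distance between log2(CPM + 0.5) values over the 6 libraries, each centred on its own mean. The 5 nearest were Tnnt2 (troponin T2, a sarcomere protein, distance 0.577), Ssc5d (a secreted scavenger receptor, 0.635), Klhl41 (a kelch protein of muscle, 0.758), Trim55 (a muscle ubiquitin ligase, 0.810) and Arpp21 (a cAMP-regulated phosphoprotein, 0.880). Tnnt2 had 0.985, 0.580 and 1.38 CPM at the anterior and 29.4, 22.1 and 30.0 CPM at the posterior end. Among the members, Cdh20 came at rank 40 and Cdh4 at rank 47, with Cdh6 at rank 207. For Cdh2, which had the most negative log2 fold change, the nearest were Npnt (nephronectin, an integrin ligand, 0.191), Tll1 (a tolloid-like protease, 0.215), Farp2 (a guanine nucleotide exchange factor, 0.251), Fat2 (an atypical cadherin, 0.254) and Cpe (carboxypeptidase E, 0.264). Npnt had 361, 354 and 270.0 CPM in anterior replicates 1, 2 and 3, and 168, 318 and 351 CPM in posterior replicates 1, 2 and 3, so that posterior replicate 1 was again the low library. These distances rest on the same 6 libraries as the differences between the ends and are given as a description.

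Markers of other cells moved with region as well, and each count of edgeR calls below stands beside 7.46% of all genes called. All 10 of 10 skeletal muscle markers were called by edgeR, all higher posterior, where 4.87% of all genes were. Of these, 6 passed the filter on low counts only through the posterior libraries, so the count and any median over the list follow in part from the filter. Their summed level was 8.10 to 13.2 CPM at the anterior end and 745, 594 and 1055 CPM in posterior replicates 1, 2 and 3, and none was at 0 in an end. The 4 cadherins that separated the ends moved in the same direction as these markers, and the part of muscle in their values was not tested. Osteoblast markers summed to 3593, 2920 and 1990 CPM in anterior replicates 1, 2 and 3, against 295, 511 and 1848 CPM in posterior replicates 1, 2 and 3. In the anterior libraries and in posterior replicate 3 most of this sum was Ibsp (bone sialoprotein), which had a mean of 2035 CPM at the anterior end and 17.9, 142 and 1277 CPM in posterior replicates 1, 2 and 3 and was not called (edgeR adjusted p = 0.309). Of 7 tested out of 8, 6 had a negative log2 fold change, the exception being Spp1 (0.13), and the median was -1.35. edgeR called 1, Dmp1 (a bone matrix protein, higher anterior), with 4 at an unadjusted p below 0.05 and 4 called by DESeq2. Bglap (osteocalcin), which did not reach the count filter, was at 0 in all posterior libraries and at 3, 0 and 1 counts in the anterior ones, at or under the detection limit in both ends. In posterior replicate 1 the osteoblast sum, Cdh2 and Cdh11 all had their lowest posterior values, and the part of bone-forming cells in those values was not tested. Chondrocyte markers summed to 331 to 423 CPM at the anterior and 779 to 1496 CPM at the posterior end, with 3 of 7 tested called by edgeR, all higher posterior (5 by DESeq2). Glial markers summed to 64.1 to 72.7 CPM and 66.6 to 93.4 CPM, with 1 of 8 called by edgeR in each direction (2 in all by DESeq2). Epithelial markers ranged from 1599 to 1705 CPM and from 1095 to 1807 CPM, with 1 of 10 called by edgeR (higher anterior, 2 by DESeq2), and mural markers from 355 to 508 CPM and from 273 to 558 CPM, with 2 of 6 called by edgeR (both higher anterior, 3 by DESeq2). No marker of these 4 lists was at 0 in an end.

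**Figure D4:**
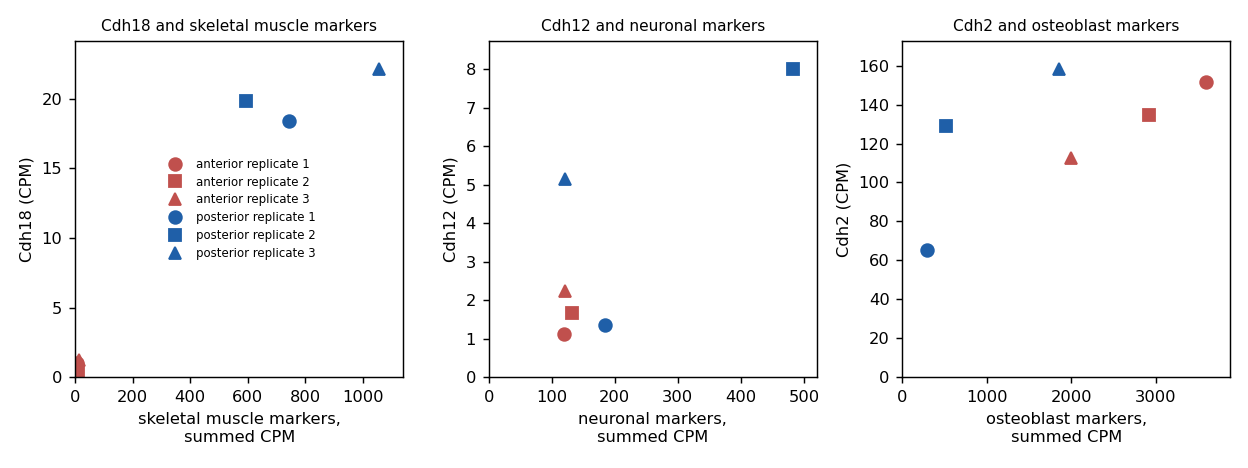
Levels (CPM) of Cdh18, Cdh12 and Cdh2 against the summed CPM of skeletal muscle, neuronal and osteoblast markers, with 1 point for each of the 6 libraries on linear axes from 0. The anterior points of Cdh18 sit together near 0 on both axes. Cdh12 and the neuronal sum are both highest in posterior replicate 2, but only the sum is raised in posterior replicate 1 and only Cdh12 in posterior replicate 3. Cdh2 and the osteoblast sum are both lowest in posterior replicate 1. In posterior replicate 2 the osteoblast sum is below the anterior range while Cdh2 is within it.

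The members work beside other adhesion genes, which were taken from lists and tested with edgeR over all genes. These lists were also chosen with earlier results of these data known, so their calls and p-values are a description. Of the 9 other classical cadherins 8 were tested and 1 was called, beside 7.46% of all genes. This was Cdh15 (M-cadherin, the cadherin of muscle precursors), at 1.36, 1.45 and 1.21 CPM in anterior and 19.1, 16.1 and 24.6 CPM in posterior replicates 1, 2 and 3, a log2 fold change of 3.88 (standard error 0.22, edgeR adjusted p = 0.000166), and 3.81 with the library-group term. It was called in every alternative. By mean TPM over all 6 libraries, Cdh1 (E-cadherin, of epithelia, 121 TPM) and Cdh5 (VE-cadherin, of vessels, 121 TPM) were nearly level at the top of this list, with Cdh1 higher at the anterior and Cdh5 at the posterior end. Cdh1 had 160.0 ± 13.2 CPM at the anterior and 158 ± 24.7 CPM at the posterior end (SD, n = 3 each) with a log2 fold change of -0.02, or 0.22 with the library-group term.

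Of the catenins, which tie cadherin tails to actin, 0 of 7 tested passed edgeR's test, beside 7.46% of all genes. At that share a list of 7 may well hold none, so the count is not read as an absence of change. At an unadjusted p below 0.05 there was 1, and DESeq2 called 0. Ctnnb1 (beta-catenin), the highest of them per length, had 1543 ± 40.7 CPM at the anterior and 1463 ± 182 CPM at the posterior end (SD, n = 3 each), a log2 fold change of -0.08 (standard error 0.13) that was -0.30 with the library-group term. Among junction and processing partners, such as nectins, vinculin and the proteases that cut cadherins, 0 of 11 were called by edgeR. This too is near the share over all genes. At an unadjusted p below 0.05 there were 3, and DESeq2 called 1 (Nectin3). Adam10, the protease that sheds N-cadherin, was the highest by TPM, with 152 ± 4.59 and 214 ± 52.6 CPM (SD, n = 3 each). Its posterior levels were 153, 244 and 245 CPM in replicates 1, 2 and 3, so that replicate 1 was within the anterior range, and the log2 fold change of 0.49 was 0.01 with the library-group term.

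The delta-protocadherins are non-classical relatives that adhere weakly and are known from brain wiring. Of 10, 7 were called, all higher posterior, with 7.46% of all genes called and 4.87% called higher posterior. The list was chosen with earlier results known, and the study had named Pcdh9 among its posterior mesenchymal markers. Its calls and p-values are thus a description. With the library-group term 5 were called, and likewise 5 with the length correction, Pcdh17 and Pcdh19 being lost in both. Pcdh18, the highest per length, had 165, 171 and 199.8 CPM in anterior and 268, 406 and 472 CPM in posterior replicates 1, 2 and 3 (log2 fold change 1.098, standard error 0.20, edgeR adjusted p = 0.0192), and 0.59 with the library-group term. Pcdh9 and Pcdh10 had log2 fold changes of 2.72 and 2.07 (edgeR adjusted p = 0.000233 and 0.000499) and were called in every alternative. Pcdh11x (1.84, edgeR adjusted p = 0.0107), Pcdh7 (1.21, 0.0250), Pcdh17 (0.72, 0.0294) and Pcdh19 (0.52, 0.0437) were called with all libraries. With the library-group term the log2 fold changes were 2.34 for Pcdh9, 1.72 for Pcdh10, 1.19 for Pcdh11x, 0.56 for Pcdh7, 0.55 for Pcdh17 and 0.31 for Pcdh19. Leaving out a library other than posterior replicate 1 left 2 or 3 of the 7 called, and the added comparison of posterior replicate 1 alone with the anterior libraries left 4. The median over the 10 was 0.91, beside 0.00 for all genes. It is not compared with the 1.102 of the cadherin members, which were picked on this contrast. Each log2 fold change behind these medians of the 2 lists was lower with the library-group term.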

How the data were processed

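Bulk RNA-seq counts of 6 libraries (3 anterior, 3 posterior palate, grouped by their labels) were used. For each library the authors deposited raw counts per Ensembl gene, unstranded and for each strand. The submitters' processing notes name HISAT2, StringTie, DESeq2 and mm10, whereas the tables are laid out as STAR writes them, and the annotation version is not given in the sources used here. Summary lines (unmapped, ambiguous and the like) stayed out of library sizes: reads in no feature were 5.92% to 8.71% and ambiguous reads 1.84% to 1.99%. Symbols and exon lengths came from GENCODE M21 (GRCm38), matched without version numbers for 52073 of 56691 identifiers. The reverse-stranded counts were used because in each library they were more than 4 times those of the other strand.

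A gene entered the test when 3 or more libraries held 10 or more counts. Testing used edgeR 4.0.16 under R 4.3.3 (TMM, quasi-likelihood, Benjamini-Hochberg, threshold 0.05, region as the only term), after the fits were tested on simulated data. Coding sequences were aligned with Biopython 1.88. Alternatives were DESeq2 1.42.0, RLE or library-size scaling, limma-voom (limma 3.58.1), other filters, unstranded counts, a replicate block, the library-group term, a length correction and leaving out each library. Posterior replicate 1 alone against the anterior libraries, and the longest coding transcript as length, were added after seeing the data. Replicates differed by more than sampling noise: chi-square per gene was 3.44 to 6.68 between anterior libraries and 9.31 between posterior replicates 2 and 3. Posterior replicate 1 gave 52.8 and 67.5 against those posterior libraries. The members and the lists were chosen with earlier results of these data known. Genes named are all members, the called genes and the highest by level of the other lists, the 5 nearest profiles to Cdh18 and to the member with the most negative log2 fold change, and the highest or zero-count markers. Nectin3, Cdh3 and Cdh7, named for their DESeq2 calls, and Cdh5, Prrx1, Ibsp, Dmp1 and Spp1 were chosen after their values were seen. 1 listed catenin and the single-cell data were not analysed here.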

Additional observations from a re-analysis of the deposited data

Results flagged for a closer look

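The counts of the strand opposite to the genes, which no comparison used, were above the limit of 3 counts in every library for 2 members. Cdh11 had 22 to 83 opposite-strand counts per library, with its own-strand counts at least 203 times as many. Cdh2 had 5 to 11, with its own-strand counts at least 79.3 times as many. In the other 8 members at least 1 library was at or below 3 opposite-strand counts. There was no control library for these counts.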

How the results depend on the processing

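Counts of member calls are given as a description, since this contrast chose the members. With at least 10 counts in every library 2 members were called (Cdh18 and Cdh20 are then not tested). Leaving out a library gave 3 to 6 member calls: Cdh20 missed the count filter without any 1 posterior library, and without posterior replicate 1 Cdh10, Cdh11 and Cdh12 were called as well, when 46.4% of all genes were. Posterior replicate 1 alone against the anterior libraries called 4 (Cdh2, Cdh4, Cdh6 and Cdh18, with 7.50% of all genes), the lone library being assumed to vary like the others.

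Over all genes, 1978 were called by DESeq2, 2162 without a filter and 498 to 7119 when a library was left out, the 7119 without posterior replicate 1. Other classical cadherins numbered 3 by DESeq2 (Cdh15, Cdh3 and Cdh7), 2 without a filter, 2 with the library-group term and 1 to 5 with a library left out. Cdh5 was called in opposite directions, higher anterior with the library-group term and higher posterior without posterior replicate 1. Catenins numbered 1 without a filter (Ctnna3), 2 with posterior replicate 1 alone and 0 to 2 with a library left out. Junction and processing partners numbered 1 by DESeq2, 1 without a filter and 0 to 5 with a library left out. Delta-protocadherins numbered 4 with posterior replicate 1 alone and 2 to 8 with a library left out. In each list the highest left-out count came without posterior replicate 1.

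The sign of the log2 fold change turned with the library-group term and with posterior replicate 1 alone, in that order, for Cdh8 (-0.23 and -0.23), Cdh11 (-0.32 and -0.32), Cdh12 (-0.31 and -0.31), Cdh13 (-0.067 and -0.068), Cdh1 (0.22 and 0.22), Cdh5 (-0.46 and -0.46), Cdh19 (-0.41 and -0.41), Jup (0.10 and 0.10), Ctnnd1 (0.036 and 0.034), Afdn (-0.21 and -0.21), Lima1 (-0.046 and -0.048) and Nectin1 (0.22 and 0.22). Cdh13 also did so with the length correction (-0.064) and Nectin2 with library size only (-0.0098). With a library left out, those of Cdh2 (-0.45 to 0.12), Cdh1 (-0.15 to 0.063), Ctnnb1 (-0.14 to 0.027), Jup (-0.20 to 0.014), Plekha7 (-0.28 to 0.21), Nectin1 (-0.20 to 0.072), Nectin2 (-0.0035 to 0.088) and Pcdh20 (-0.33 to 0.20) crossed 0. The library-group term and posterior replicate 1 alone both rest on that library and the anterior libraries, so they are not separate checks. The cause of these turns was not tested.

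By the longest coding transcript, type II held 79.0% at the anterior end. Same-numbered libraries did not deviate together (correlations -0.0492, 0.0594 and 0.0371). This cannot decide whether the numbers pair them, because posterior replicate 1 differed strongly from the other posterior libraries. Chi-square per gene was 52.8 and 67.5 against posterior replicates 2 and 3, and 9.31 between those. With the replicate block 4 members, 6 delta-protocadherins and 829 genes in all were called.

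With 3 libraries an end, 1 library can decide a call. At the anterior end Cdh18 and Cdh20 had at most 14 counts a library, so their folds rest on few reads.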
